A study of Saccharomyces cerevisiae with 6 samples.

Results

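The 59 genes described here encode nucleolar ribosome biogenesis factors of budding yeast, the proteins that build ribosomal subunits around the ribosomal RNA precursor. They were taken by systematic name from the 6212 identifiers of the expression table, and comprise NOP, UTP and RRP factors with other nucleolar assembly proteins. The choice was made from function, and all 59 matched the R64 reference annotation by systematic name and symbol. Their annotated lengths run from 471 to 7482 bp, with a median of 1572 bp, against a median of 1137 bp over all genes measured at 6 h.

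The cells were of strain mmr09-4 (cml476 background), in which a tetO7 cassette precedes the YPI1 coding region, so that doxycycline shuts the gene off. The YPI1 product binds and regulates Glc7, the catalytic part of type 1 protein phosphatase, and the series asks about its role in mitosis. Treated cells received 100 µg/ml doxycycline in an ethanol and water mix in rich YPD medium for 2, 4 or 6 h, and untreated cells of the same strain received the mix alone for the same time. Each time had 1 pair of treated and untreated RNA samples on 2 dye-swapped arrays, 6 arrays in all. Both sides of every ratio carried the cassette and a single strain was used, so doxycycline itself and the loss of Ypi1 cannot be told apart.

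In the nucleolus RNA polymerase I transcribes one long precursor, which is modified, folded and cut while assembly factors and ribosomal proteins join it. Small nucleolar ribonucleoproteins (snoRNPs) of the box C/D class guide ribose methylation and those of the box H/ACA class guide pseudouridylation. The small subunit processome, with its UtpA and UtpB modules, forms on the 5′ part of the precursor, and a separate set of factors with helicases and GTPases matures the large subunit. In yeast these genes are known as a regulon that growth signals and stress move together, together with the ribosomal protein genes.

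Every value below is a log2 ratio of treated over untreated cells, so 1 is a 2-fold higher and −1 a 2-fold lower transcript level. The labels do not state the base of the logarithm, and base 2 is assumed in each fold. A value at a time is the mean ± SD of its 2 arrays, which share their RNA, so the SD is technical and no p-value was computed at a single time. YPI1 itself was between −4.06 and −6.44 on all 6 arrays. Arrays held values for 4250 to 4804 genes, and their medians over all genes lay between −0.10 and 0.02. The depth behind a ratio is unknown, since spot brightness was not analysed here, and precision is limited by the few arrays. In whole cultures a lower share of some cells and less of an RNA in each cell cannot be told apart. Genes are given by symbol and, at their first values, by systematic name and chromosome of the R64 build.

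Of the 59 genes, 42 had a value on all 6 arrays, 13 on some, and 4 on none. The 4 without any value were UTP10 and RRP5, which are long, HAS1 and NOP16. Both arrays of a time gave a value for 47 genes at 2 h, 55 at 4 h and 49 at 6 h.

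**Figure D1:**
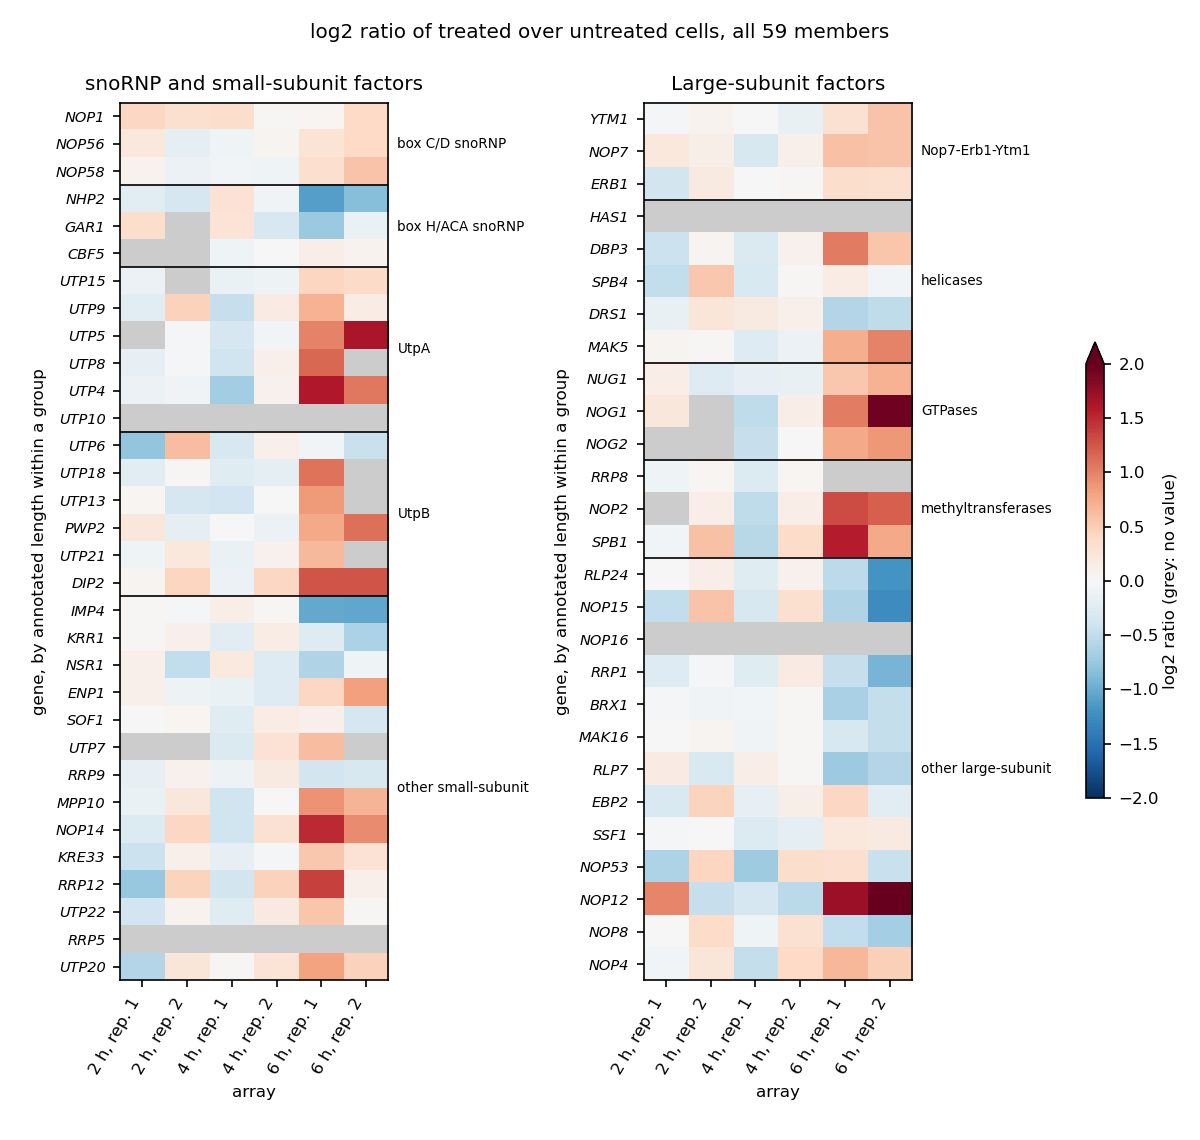
Log2 ratio of treated over untreated cells for the 59 genes (rows, grouped by role and ordered by annotated length) on the 6 arrays (columns). Red is higher and blue lower in treated cells, grey marks no value, and the colour scale ends at 2, which NOP12 exceeds with 3.17 on replicate 2 of 6 h. The 6 h columns hold the strongest colours, and short genes there are mostly blue and long genes mostly red.

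At 2 and 4 h no biogenesis gene reached a 2-fold difference, and their medians lay near 0. The 47 genes measured at 2 h had a median of 0.00 and ran from −0.28 for NHP2 to 0.37 for NOP1. The 55 measured at 4 h had a median of −0.06 and ran from −0.44 for NOP12 to 0.19 for NOP1. The medians over all genes were −0.01 at the earlier and 0.01 at the later time. The 2-fold rule, a mean of at least 1 in size with 1 sign on both arrays, took 0 of the 47 and 0 of the 55. Of all genes it took 0% as higher at either time and, as lower, 0.0486% at 2 h and 0.064% at 4 h.

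At these times most biogenesis genes were below 0 on replicate 1 and most were above 0 on replicate 2. At 4 h, 46 of 55 genes were below 0 on replicate 1, with a median of −0.24, while 38 of 55 were above 0 on replicate 2, with a median of 0.05. At 2 h, 32 of 50 were below 0 on replicate 1 and 33 of 49 above 0 on replicate 2. Over all genes 52.7% and 48.5% were above 0 on the 4 h arrays, and 53.2% and 47.6% on those of 2 h. Across the biogenesis genes, which share their arrays and so are no replicates, the correlation between swapped arrays was r = −0.59 for 2 h (n = 47) and r = −0.36 for 4 h (n = 55). For 6 h it was 0.82 (n = 49). Over all genes the correlation between swapped arrays was −0.4 for 2 h, −0.17 for 4 h and 0.87 for 6 h. The arrays that carried treated RNA in Cy3 at 2 and 4 h, replicate 2 of each, correlated with each other with r = 0.71 (n = 49). Over all genes it was 0.58. The labels give Cy3 for both channels of replicate 2 at 2 h, which was taken as the dye swap. At 6 h treated RNA was in Cy3 on replicate 1 and in Cy5 on replicate 2. Dye and array cannot be told apart at a single time. A limma fit of the 6 arrays with dye as a term called 0 of the 42 genes for the mean.

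**Figure D2:**
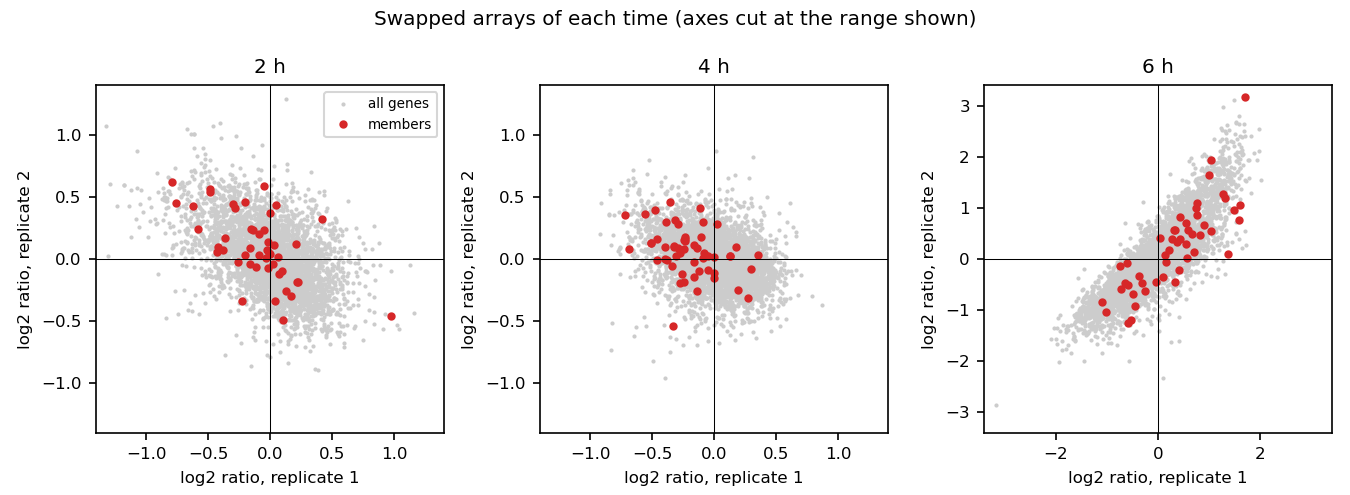
Log2 ratio on replicate 1 (x axis) against replicate 2 (y axis) at 2, 4 and 6 h, with all genes in grey and the biogenesis genes in red. At 2 and 4 h the red points run from upper left to lower right (r = −0.59 and −0.36), and at 6 h they lie along the diagonal (r = 0.82).

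As over all genes, most biogenesis genes had opposite signs on the swapped arrays at 2 and 4 h. At 2 h, 5 of 47 were above 0 on both arrays (16.8% of all genes) and 5 below (16.3%), so 10.6% of the measured genes in each direction. At 4 h, 5 of 55 were above (18.1% of all genes) and 13 below (17.5%), or 9.1% and 23.6%. The 13 were NOP12, NOG2, SSF1, UTP18, UTP5, ENP1, UTP13, MAK5, NUG1, UTP15, KRE33, NOP58 and PWP2, from −0.44 for NOP12 to −0.06 for PWP2. UTP18 was at −0.21 ± 0.04 and SSF1 at −0.24 ± 0.05. Against genes of like length from their own chromosome (matched genes, see the 6 h results), 7 of 55 were above 0 on both 4 h arrays (18.7% of all genes) and 8 below (19.2%). At 2 h it was 3 of 47 above (17.2%) and 10 below (17.4%). On that scale 0 of these genes were 2-fold lower, against 0.051% of all genes at 2 h and 0.0675% at 4 h.

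NOP12 had the widest gap between swapped arrays at 2 h, with 0.97 on replicate 1 and −0.46 on replicate 2. UTP6 (YDR449C, chromosome IV) of the UtpB module was next, with −0.80 and 0.62. At 4 h the widest gaps were those of NOP53 (YPL146C, chromosome XVI), a factor of late large-subunit maturation, with −0.72 and 0.36, and SPB1, a methyltransferase, with −0.56 and 0.36. In all 4 genes the arrays had opposite signs and the mean was smaller in size than either value.

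NOP1 (YDL014W, chromosome IV) was the 1 gene of the 42 with a positive value on all 6 arrays, and none of the 42 was negative on all 6. Nop1, the yeast fibrillarin, is the methyltransferase of box C/D snoRNPs. Its arrays gave 0.42 and 0.32 at 2 h, then 0.36 and 0.03 at 4 h. At 6 h they gave 0.035 and 0.40, so 1 array each of 4 and 6 h lay near 0. The mean over the times was 0.26 with an SE of 0.18 (n = 3 RNA pairs, limma adjusted p = 0.806, higher on 6 of 6 arrays), so it did not pass. Over all genes 1% were above 0 and 0.973% below 0 on all 6 arrays.

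At 6 h the biogenesis genes, like all genes, were more widely spread, with 8 at least 2-fold higher, 1 at least 2-fold lower, and a median of 0.34. The SD across the biogenesis genes was 0.121 at 4 h and 0.754 at 6 h, and across all genes 0.16 and 0.756. The 49 measured genes ran from −1.03 for IMP4 to 2.44 for NOP12, and 30 were above 0 on both arrays, 15 below and 4 of mixed sign. The shares of all genes were 39.4% above and 48.3% below. The 2-fold rule took 9.81% of all genes as higher and 8.08% as lower, against 16.3% and 2.0% here. When each of the 2 arrays had to pass the limit, 5 genes were higher (6.42% of all genes) and 1 lower (4.62%). All 6 arrays were also scaled to the same median absolute deviation, which shrank the 6 h ratios (IMP4 from −1.03 to −0.44). A limit of 1 is stricter on that scale and is not 2-fold in the deposited values. There 1 gene was higher and 0 lower, and the median was 0.148. The share of all genes on that scale is not given here. Replicate 1 had a median of 0.36 over the 49 genes and replicate 2 a median of 0.29.

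The ratio of a biogenesis gene at 6 h went with its length. The Spearman correlation between the 6 h ratio and the annotated length was 0.72 across the 49 genes, which share the same 2 arrays, and 0.63 across all genes with an annotated length. The 11 genes under 1000 bp had a median of −0.66, and 10 of them were below 0 on both arrays. The 11 genes of 1000 to under 1500 bp had a median of 0.10, the 14 of 1500 to under 2000 bp one of 0.60, and the 9 of 2000 to under 3000 bp one of 0.93. The 4 genes from 3000 bp, UTP20, UTP22, KRE33 and RRP12, had a median of 0.52.

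All genes of the same length classes had medians close to these. They were −0.53, 0.11, 0.57, 0.86 and 0.44. Of the biogenesis genes 21.4% passed 2-fold higher from 1500 to under 2000 bp and 44.4% from 2000 to under 3000 bp, against 22.1% and 44.0% of all genes. The cause of the relation to length was not tested.

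**Figure D3:**
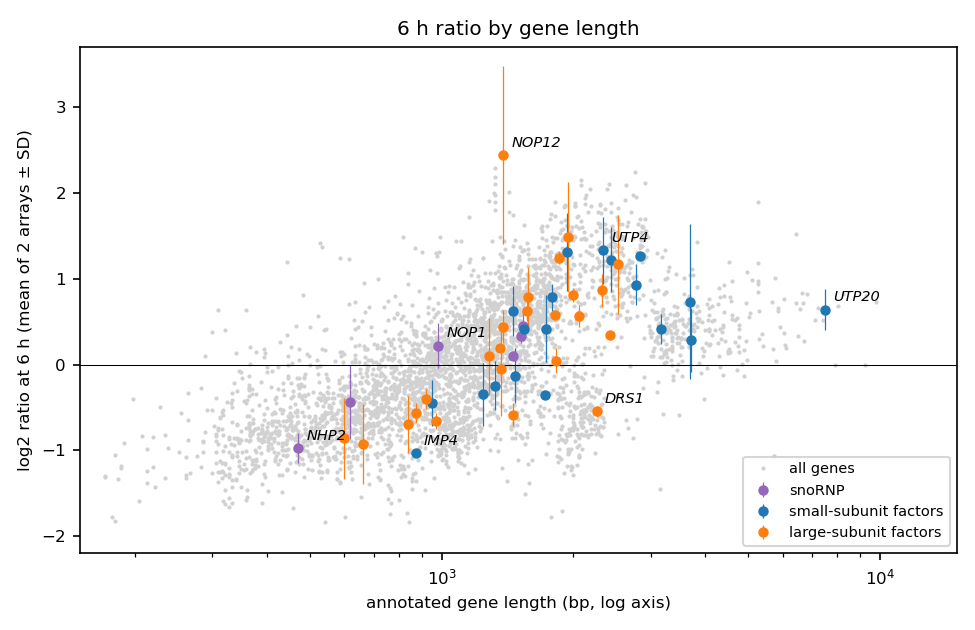
Log2 ratio at 6 h (mean of 2 arrays ± SD) against annotated gene length in bp on a log axis, for all genes in grey and the biogenesis genes in colour by role. The coloured points climb with the grey ones from NHP2 at −0.97 to UTP4 at 1.33, while NOP12 at 2.44 lies above genes of its length and DRS1 at −0.55 sits in a lower grey branch near 2000 bp.

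To set each gene against its like, each array's median over 20 matched genes was subtracted, these being the genes of the same chromosome closest to it in length. On that scale the median of the 49 genes at 6 h was −0.12, 10 were above 0 on both arrays (36.3% of all genes) and 23 below (38%), 1 was at least 2-fold higher (2.7% of all genes) and 0 were 2-fold lower (2.91%). The 1 was NOP12. Against the deposited values 14 of the 49 changed sign, 13 of them from above 0 to below. The corrected ratios of the 49 genes still had a Spearman correlation of 0.31 with length.

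**Figure D4:**
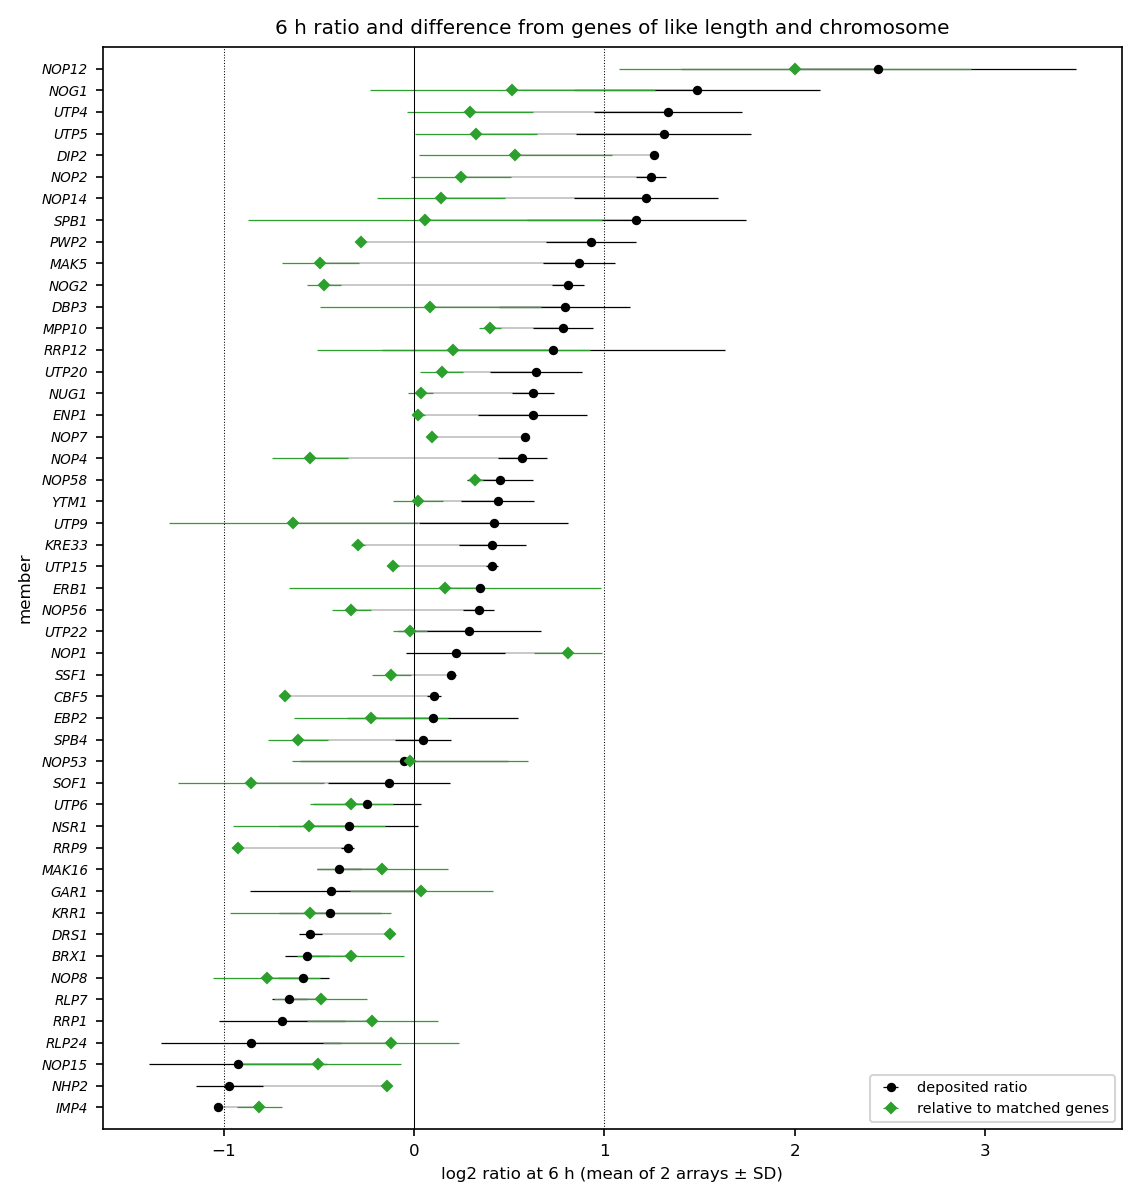
Log2 ratio at 6 h of the 49 biogenesis genes with both arrays (black) and the same value relative to matched genes (green), each as mean ± SD of 2 arrays, with dotted lines at a 2-fold difference. Most green points lie nearer 0 than the black ones at the upper end, NOP12 stays near 2, and NOP1 moves up from 0.22 to 0.81.

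The box C/D genes NOP1, NOP56 and NOP58 stood slightly above 0 at 6 h, while SNU13 of the same class was below 0. In both snoRNP classes the deposited ratios were in the order of gene length. NOP58 was at 0.33 and 0.57 on the 2 arrays and NOP56 at 0.28 and 0.40. These related proteins form the scaffold that holds Nop1 on the guide RNA. NOP1 had a mean of 0.22 ± 0.26 at 6 h. Set against matched genes, NOP1 was at 0.81 ± 0.18, NOP58 at 0.32 ± 0.04 and NOP56 at −0.33 ± 0.10, so these partners had different signs on that scale. SNU13, the small core protein that starts box C/D assembly and was not in the chosen set, was at −0.74 ± 0.32 (381 bp). The other box C/D genes are longer, 984 bp for NOP1, 1515 for NOP56 and 1536 for NOP58. Relative to matched genes SNU13 was at −0.25, and the box C/D values were no longer in the order of length.

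In the box H/ACA core, NHP2 (YDL208W, chromosome IV), which binds the guide RNA, had −1.10 and −0.85 at 6 h, GAR1 had −0.74 and −0.13, and CBF5, the pseudouridine synthase, had 0.13 and 0.08. NOP10, the smallest core subunit and not one of the 59, was at −1.78 ± 0.03. The ratios of these 4 subunits of one complex followed the order of their genes' lengths, 177 bp for NOP10, 471 for NHP2, 618 for GAR1 and 1452 for CBF5. After subtraction of matched genes NOP10 was at −1.16, NHP2 at −0.145, GAR1 at 0.04 and CBF5 at −0.68, which is not in that order.

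UtpA genes were all above 0 at 6 h where measured, against 39.4% of all genes above 0 on both arrays. Of all genes of 1500 to under 2000 bp it was 441 of 612. The UtpA module binds the precursor first and is also tied to its transcription. UTP4 (YDR324C) had 1.61 and 1.06 on the 2 arrays, and UTP5 (YDR398W) had 0.99 and 1.64. Both genes lie on chromosome IV. Both passed the 2-fold rule with means of 1.33 ± 0.39 and 1.31 ± 0.46, or 2.52-fold and 2.48-fold. UTP15 had 0.43 and 0.39, UTP9 had 0.70 and 0.14, and UTP8 had 1.14 on replicate 1 and no value on replicate 2. On the matched scale UTP4 was at 0.295, UTP5 at 0.325, UTP15 at −0.11 and UTP9 at −0.635. NAN1, the UtpA subunit outside the 59, was at 1.12 ± 0.23, and at 0.13 on the matched scale.

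The 6 UtpB genes, which encode a module of repeat proteins that joins after UtpA, differed more. DIP2 (YLR129W, chromosome XII) had 1.26 on both arrays (2.40-fold), and PWP2 (YCR057C, chromosome III) had 0.76 and 1.10. UTP6, the shortest of them, had −0.05 and −0.45. UTP13, UTP18 and UTP21 were measured on replicate 1 alone, at 0.855, 1.09 and 0.65. Their matched values were 0.53 ± 0.51 for DIP2, −0.28 for PWP2 and −0.33 for UTP6. DIP2 had the steepest fit against its error among the biogenesis genes, with a slope through the origin of 0.155 per hour and an SE of 0.045, and did not pass (limma adjusted p = 0.306, higher on 5 of 6 arrays).

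Among the other small-subunit factors, NOP14 was the highest and IMP4 the lowest at 6 h. Nop14 holds the early processome together, and its gene (YDL148C, chromosome IV) had 1.49 and 0.95 (mean 1.22 ± 0.38, 2.33-fold). Imp4 works with Imp3 and Mpp10 at the base pairing between the U3 small nucleolar RNA and the precursor. IMP4 (YNL075W, chromosome XIV) had −1.02 and −1.04 at 6 h (mean −1.03 ± 0.02, 2.04-fold lower), after values between −0.04 and 0.13 on the 4 earlier arrays. Its partners had other signs or sizes, with 0.90 and 0.67 for MPP10 and −0.43 and −0.10 for IMP3. IMP4 was at −0.98 when arrays were centred on their medians, which ends its 2-fold call, at −0.76 after removal of a curve fitted on length over all chromosomes, and at −0.81 on the matched scale, where MPP10 was at 0.40 and IMP3 at 0.21. On replicate 2 alone 3 biogenesis genes were at least 2-fold lower, IMP4, NOP15 and RLP24, and on replicate 1 alone 2, IMP4 and NHP2. The shares of all genes on a single array are not given here.

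RRP12 (YPL012W, chromosome XVI), a repeat protein of late subunit maturation and export, had 1.37 on replicate 1 and 0.09 on replicate 2 of 6 h, one of the widest gaps. UTP20 was at 0.64 ± 0.24, ENP1 at 0.62 ± 0.29, KRE33, an RNA acetyltransferase, at 0.41 ± 0.18, and UTP22 at 0.29 ± 0.375. UTP7 was at 0.62 on replicate 1 alone. Of the 12 other small-subunit genes with both 6 h arrays, 7 were above 0 on both (39.4% of all genes) and 4 below (48.3%). On the matched scale 2 were above (36.3% of all genes) and 6 below (38%). SOF1 was at −0.13 ± 0.32, NSR1, the yeast nucleolin, at −0.34 ± 0.37, and KRR1 at −0.44 ± 0.27. RRP9, a protein of the U3 snoRNP, was at −0.35 ± 0.03 and had the lowest matched value of the 49, at −0.93, followed by SOF1 at −0.86.

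**Figure D5:**
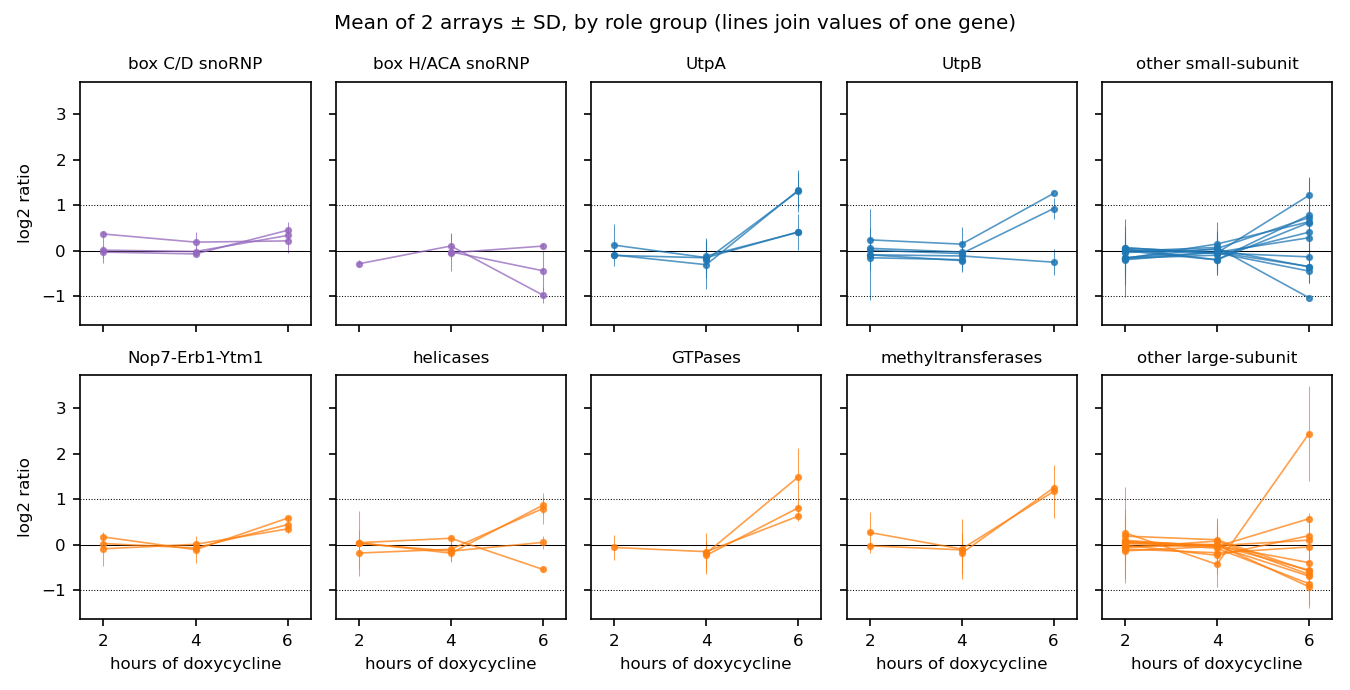
Mean log2 ratio ± SD of 2 arrays (y axis) against hours of doxycycline (x axis) for each gene with both arrays of a time, in 10 role groups, with dotted lines at a 2-fold difference. Points at 2 and 4 h lie within 0.44 of 0 and spread at 6 h, upward in the UtpA, Nop7 complex (PeBoW), GTPase and large-subunit methyltransferase groups and both ways in UtpB, helicase and other factors.

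Of 12 measured large-subunit genes for the Nop7 complex, helicases, GTPases and methyltransferases, 10 were above 0 on both arrays at 6 h, against 39.4% of all genes. On the matched scale 2 of the 12 were above 0 on both arrays (36.3% of all genes) and 4 below (38%). Of all genes of 1500 to under 2000 bp 441 of 612 were above 0 on both arrays, and of those of 2000 to under 3000 bp 275 of 402. Nop7, Erb1 and Ytm1 form a complex needed to process the precursor, and their genes lay close together. NOP7 had 0.59 and 0.57, YTM1 0.30 and 0.57, and ERB1 0.36 and 0.33. In that order their matched values were 0.09 ± 0.02, 0.02 ± 0.13 and 0.16 ± 0.82, with opposite signs on the arrays of YTM1 and ERB1.

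Of the DEAD-box helicase genes, which encode enzymes that remodel RNA, MAK5 (YBR142W) had 0.73 and 1.00 and DBP3 had 1.04 and 0.55. SPB4 was at 0.05 ± 0.15, and DRS1 (YLL008W) had −0.59 and −0.50. MAK5 on chromosome II and DRS1 on chromosome XII are of like length, 2322 and 2259 bp, and their deposited ratios had opposite signs. Set against matched genes, both were below 0, at −0.49 for MAK5 and −0.13 for DRS1. With that length curve removed instead, MAK5 was at 0.11 and DRS1 at −1.30, past 2-fold lower. All genes of 2000 to under 3000 bp had a median of −0.33 on chromosomes X to XIII and 1.20 on the others, a split made with these values known.

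The GTPase genes, whose products act as checkpoints of large-subunit assembly, were all above 0 on both 6 h arrays. That held for 39.4% of all genes and for 441 of 612 genes of 1500 to under 2000 bp, their length class. NOG1 (YPL093W, chromosome XVI) had 1.03 and 1.94 (mean 1.49 ± 0.65, 2.80-fold), NOG2 had 0.75 and 0.87, and NUG1 had 0.55 and 0.70. At 4 h all 3 had negative means, between −0.24 and −0.16, with both arrays below 0 for NOG2 and NUG1. Matched values were 0.52 ± 0.75 for NOG1, 0.03 for NUG1 and −0.475 for NOG2.

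Both measured methyltransferase genes of the large-subunit pathway passed 2-fold at 6 h, against 9.81% of all genes. In their length classes 22.1% (1500 to under 2000 bp, NOP2) and 44.0% (2000 to under 3000 bp, SPB1) of all genes did so. NOP2 (YNL061W, chromosome XIV) had 1.30 and 1.19 (mean 1.25 ± 0.08, 2.37-fold). SPB1 (YCL054W, chromosome III) had 1.57 and 0.76 (mean 1.17 ± 0.575, 2.25-fold). On the matched scale they were at 0.25 ± 0.26 and 0.06 ± 0.93. RRP8 had no value at 6 h, and was at −0.03 ± 0.09 at 2 h and −0.12 ± 0.23 at 4 h.

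The other large-subunit factors had a median of −0.48 at 6 h, and 7 of 12 (58.3%) were below 0 on both arrays, against 48.3% of all genes. Their median length was 1126.5 bp. Of all genes under 1000 bp 1235 of 1611 were below 0 on both arrays, and of those of 1000 to under 1500 bp 367 of 1033. On the matched scale 6 of the 12 were below 0 on both arrays (38% of all genes). They include RNA-binding proteins and relatives of ribosomal proteins. The lowest were NOP15 (YNL110C, chromosome XIV), an RNA-binding protein, with −0.60 and −1.26, and RLP24 (YLR009W, chromosome XII), a placeholder for a ribosomal protein, with −0.53 and −1.20. RRP1 was at −0.69 ± 0.33, RLP7 at −0.66 ± 0.09, NOP8 at −0.58 ± 0.13, BRX1 at −0.56 ± 0.115 and MAK16 at −0.40 ± 0.12. NOP53, EBP2, SSF1 and NOP4 lay at −0.05 ± 0.55, 0.10 ± 0.45, 0.195 ± 0.02 and 0.57 ± 0.13. SSF1 and its near-identical copy SSF2 may share signal on an array; SSF2 was at 0.47 ± 0.02. Relative to matched genes the group had a median of −0.22, with NOP8 lowest at −0.78.

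NOP12 (YOL041C, chromosome XV, 1380 bp), an RNA-binding protein of large-subunit precursor processing, had the highest 6 h ratio of the 59 and of all genes measured on both arrays. It had 1.71 on replicate 1 and 3.17 on replicate 2 (mean 2.44 ± 1.04, 5.43-fold). At 4 h it was below 0 on both arrays, at −0.33 and −0.54, and at 2 h its arrays had opposite signs. Relative to matched genes it was at 2.00 ± 0.93 at 6 h. The mean over the times was 0.75 with an SE of 0.52 (limma adjusted p = 0.806, higher on 3 of 6 arrays), and did not pass.

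Over the 3 times no biogenesis gene passed a test. Limma was fitted to the 3 time means (n = 3 RNA pairs) of 3391 genes, among them the 42, once for the mean and once for the slope on hours through 0. The test of the mean called 0 of 42 (0.0295% of all genes, which is YPI1), and 0 of 42 had an unadjusted p below 0.05. The slope called 0 of 42 (0.059% of all genes), and 4 of 42 had an unadjusted p below 0.05 (14.3% of all genes). These 4 were DIP2, NOP12, NOP14 and SPB1, all with positive slopes and each with a limma adjusted p = 0.306. With the 4 h arrays left out the slope called 22 of 42, against 51.2% of all genes, on 1 residual degree of freedom per gene.

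Ribosome biogenesis genes outside the 59 were likewise spread to both sides of 0 at 6 h. None of their genes passed limma's tests over the times. The 2-fold rule took 9.81% of all genes as higher and 8.08% as lower at 6 h, the shares to set beside the counts below. Of 51 further small-subunit factors 42 were measured, with a median of −0.25, 2 at least 2-fold higher and 2 lower. PRP43, a helicase, was at 1.64 ± 0.36 and FCF1, a processome protein with a nuclease domain, at −1.10 ± 0.05, beside NAN1 and NOP10 given above. Of 53 further large-subunit factors 50 were measured, with a median of 0.22, 3 higher and 1 lower. DBP6, a helicase, was at 1.47 ± 0.65, RIX1 at 1.20 ± 0.18, PWP1 at 1.06 ± 0.13 and MRT4, a placeholder for a ribosomal stalk protein, at −1.035 ± 0.10. The 19 genes of the exosome and other precursor nucleases had a median of −0.16, with 0 past 2-fold. On the matched scale these 3 lists had medians of −0.09, −0.11 and −0.14, beside −0.12 for the 59. In the same order the Spearman correlations with length were 0.70, 0.64 and 0.69 for the deposited ratios, and 0.14, −0.11 and −0.44 for the matched ones.

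Ribosomal protein genes, which share regulation with biogenesis genes in yeast, had a median of −1.14 at 6 h, with 81 of 120 at least 2-fold lower. Their median length was 771 bp. Of all genes 8.08% were at least 2-fold lower, and of those under 1000 bp 15.3%. On the matched scale the ribosomal protein genes had a median of −0.70, with 21 of 120 at least 2-fold lower, against 2.91% of all genes. The difference between the groups was not tested, since each time holds 1 RNA pair.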

How the data were processed

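The deposited values are log2 ratios, 1 per reading frame and array, with treated RNA in the numerator per the labels. Base 2 is assumed. Small and dim spots were dropped by the authors, per the labels' description. How ratios were normalized and swapped arrays turned is not given in the sources used here. Treated over untreated was kept on all arrays, since YPI1 was negative on each.

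Of 6212 identifiers, 5662 matched R64 by systematic name, 24 after a change to upper case. Gene lengths are annotated spans, introns included. Swapped arrays were averaged first. Two-sided tests were run with limma 3.58.1 under R 4.3.3 by lmFit, then eBayes, with Benjamini-Hochberg adjustment over 3391 genes and a threshold of 0.05. No p measures biological spread, since the 3 RNA pairs differ in hours. Lowess curves on log2 length used a span of 0.3 and 3 robust steps. In simulated data of 3391 genes the test of the mean recovered 39% of 200 genes shifted by 1 on the log2 scale and 85.5% of those shifted by 2. The slope test recovered 0% and 68.5% of genes that reached these values at 6 h. Only constant and linear shifts were simulated. In the measured data the SD across all genes was 0.756 for 6 h against 0.16 for 4 h. The recovery rates therefore do not give the power for differences seen at 6 h alone.

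The genes, lists and corrections were chosen with earlier results of these data known. Values on each array are given for genes past 2-fold, the extremes of each role group, genes of 1 sign on all 6 arrays and the 2 widest gaps per time, and for further genes where they help. SNU13 and IMP3 were named after their values were seen. Promoter and protein sequences were not used here.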

Additional observations from a re-analysis of the deposited data

Results flagged for a closer look

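For 16 of the 59 genes, both arrays of one time had the opposite sign to both arrays of another. These differences between times were not tested. Between 4 and 6 h, 14 of 49 genes did so, against 23.7% of 4021 genes over the whole table. Of the 14, 11 were below 0 at 4 h and above 0 at 6 h. Their 6 h means were 2.44 for NOP12, 1.31 for UTP5, 0.93 for PWP2, 0.865 for MAK5, 0.81 for NOG2, 0.62 for both NUG1 and ENP1, 0.45 for NOP58, 0.41 for both KRE33 and UTP15, and 0.195 for SSF1. Their 4 h means lay between −0.44 and −0.06. The other 3 were above 0 at 4 h, at 0.08 to 0.14, and below 0 at 6 h, with IMP4 at −1.03, RLP7 at −0.66 and DRS1 at −0.55. Over all genes the Spearman correlation with length also changed sign, from −0.29 at 4 h to 0.63 at 6 h. Relative to matched genes PWP2 (−0.28), MAK5 (−0.49), NOG2 (−0.475), KRE33 (−0.29), UTP15 (−0.11) and SSF1 (−0.12) were below 0 at 6 h. NOP12, UTP5 and NOP58 stayed above 0 on both arrays, with means from 0.32 for NOP58 to 2.00 for NOP12. The arrays of NUG1 (−0.015 and 0.08) and ENP1 (−0.003 and 0.046) had opposite signs on that scale. IMP4, RLP7 and DRS1 stayed below 0 on both arrays.

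Between 2 and 6 h, 2 of 42 genes did so (10.6% of all genes), UTP4 from −0.09 to 1.33 and KRR1 from 0.07 to −0.44. Between 2 and 4 h it was 1 of 47 (8.09% of all genes), MAK5 from 0.04 to −0.19. Groups of 2 arrays are too small for a test of outlying arrays.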

How the results depend on the processing

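The medians at 2 and 4 h kept within the spread of their 2 arrays under every alternative run, sign turns of the Cy3 arrays included (−0.08 and −0.14), and no gene passed 2-fold at those times under any. At 6 h the median of 0.34 moved to −0.114 with the length curve removed, −0.123 relative to matched genes, 0.148 with arrays scaled to 1 median absolute deviation and 0.414 when 1 array was enough, and ranged from 0.286 to 0.426 with a replicate left out. The 8 genes higher at 6 h (9.81% of all genes) became 1 with the length curve removed and 1 relative to matched genes (2.7%). They became 17 at 1.5-fold and 5 with the limit passed on each array (6.42%). With arrays scaled the count was 1, but scaling shrank the 6 h ratios, so that limit is not 2-fold in the deposited values. The count of 1 lower gene, IMP4 (8.08% of all genes), became 0 with arrays centred, relative to matched genes (2.91%) or with arrays scaled. It was 1 with the length curve removed (DRS1 at −1.30, with IMP4 at −0.76), 6 at 1.5-fold, and 2 to 3 with a replicate left out. Where no percentage stands beside a count, the share of all genes is not given, so that count is no comparison with all genes. Of the 49 genes, 13 changed sign at 6 h with the length curve removed and 0 with arrays centred or scaled. Scaling multiplies each array by a positive number, so it cannot turn a gene of 1 sign on both arrays, and its 0 shows little. The causes were not tested.

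No alternative gave a biogenesis gene past the test of the mean. For the slope the 1 exception was leaving out 4 h (22 genes, and 1768 over all genes). Over all genes the test of the mean, which called 1, called 2 with the length curve removed, without 2 h, without 4 h, with 6 arrays as units and with the dye as a term, 0 relative to matched genes or with signs turned, 8 with arrays scaled and 11 without 6 h. The slope, which called 2, called 0 with the length curve removed, relative to matched genes or with signs turned, and 11 without 6 h. With the replicate block on 6 arrays the mean called 2 over all genes and 0 of the 42, and the slope 2 and 0, which counts dye swaps as replicates. Same-numbered arrays did not pair. Their deviations from the time means correlated with r = 0.57 for 2 and 4 h, −0.71 for 2 and 6 h and −0.54 for 4 and 6 h. By the labels, treated RNA on replicate 1 was in Cy5 at 2 and 4 h and in Cy3 at 6 h. Deviations of arrays with the same label for treated RNA thus correlated above 0 at each pair of times. Whether the dye was the cause was not tested. The number of arrays limits every value.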

Other observations

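Among 9 regulators of ribosome genes, 6 had both arrays at 6 h and 2 were at least 2-fold higher, against 9.81% of all genes. Both were of 2000 to under 3000 bp, a class in which 44.0% of all genes were 2-fold higher. Relative to matched genes 0 of the 6 were 2-fold higher, against 2.7% of all genes. DOT6, a repressor that binds promoters of ribosome biogenesis genes, had 1.63 and 2.07 (mean 1.85 ± 0.31, and 0.645 relative to matched genes). Its relative TOD6 had 0.445 and 1.07, and 0.10 relative to matched genes. SCH9, the kinase that restrains both repressors, had 1.52 and 1.23, and 0.10 relative to matched genes. SFP1, an activator of ribosome genes, had −0.31 and −0.24, but 0.17 relative to matched genes. STB3, another repressor of biogenesis genes, had −0.62 and −0.01, and −0.41 relative to matched genes. IFH1, the remaining regulator with both arrays, had 0.31 and −0.25, and −0.51 relative to matched genes. At 4 h these 6 genes lay between −0.14 and 0.21.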
